A study of Mus musculus with 6 samples.

Results

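The genes described here are the subunits of the transcription factor NF-κB and its inhibitors, measured in peritoneal cavity (PC) B1a cells of p40-/-CD25-/- mice, which lack both the p40 chain of IL-12 and IL-23 and the IL-2 receptor α chain (IL-2Rα, CD25), and of p40-/-CD25+/- mice. They were chosen by name. Every non-control probe of the 6 arrays named for Nfkb1, Nfkb2, Rel, Rela, Relb, Nfkbia, Nfkbib, Nfkbie, Nfkbiz or Tnfaip3 was read, which gave 14 probes of 10 genes, of 55681 probes and 36163 gene names on the array. The p40-/-IL-2Rα-/- mice, here called knockout, develop autoimmune cholangitis and serve as a model of primary biliary cholangitis. The p40-/-IL-2Rα+/- mice, here called control, carry the same p40 deletion and 1 intact IL-2Rα allele, so that the comparison is of the loss of IL-2Rα on a p40-deficient C57BL/6 background. All mice were females of 7 weeks, and both deletions are germline, so that the loss of IL-2Rα is not limited to B cells. B1a cells were sorted by flow cytometry, with a gate that included CD11b and CD5, from pools of at least 3 mice for each sample, and each genotype had 3 samples, each on 1 one-colour Agilent array.

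NF-κB is a family of dimers. Rela (p65), Rel (c-Rel) and Relb carry the transactivation domain, while Nfkb1 and Nfkb2 encode the precursors p105 and p100 that are processed to the DNA-binding subunits p50 and p52. In a resting cell the dimers are held in the cytoplasm by IκB proteins (Nfkbia, Nfkbib, Nfkbie), until the IκB kinases mark these for degradation after signals from the B cell receptor, Toll-like receptors or CD40. B1a cells are innate-like B cells of the body cavities that make natural antibodies and IL-10, and several NF-κB inhibitors are themselves target genes of NF-κB in lymphocytes.

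Values are log2 of the background-subtracted spot signal minus the 75th percentile of the array, so that 0 is the brightness of the 75th percentile of all non-control spots. Differences are knockout minus control, and a level of one probe says nothing against the level of another. Knockout arrays gave less signal. Their 75th percentile ran from 66.5 to 162, lowest on replicate 2, and that of the control arrays from 252 to 272. Of 59305 spots, 39.7% to 45.9% in knockout and 47.2% to 50.6% in control samples were well above background, and none was saturated. The probe for the deleted gene Il2ra read 1.62, 1.13 and 1.35 in control and -0.31, -0.59 and 0.86 in knockout cells, with no overlap and an adjusted p of 0.119. The Il12b probe, for the p40 chain that both genotypes lack, read a mean of -2.06 on the control and -2.08 on the knockout arrays. Both probes were well above background on all 6 arrays, so each gave signal in cells that carry the deletion. Where these probes lie relative to the deleted exons was not analysed here, so they check the labels only in part. In RNA of sorted cells, fewer cells of a type and less RNA in each cell cannot be told apart, and 3 arrays for each genotype limit the precision.

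No NF-κB subunit or inhibitor passed the test of a difference between the genotypes after adjustment over all genes. Of the 10 genes, 9 were tested, each by the probe with the highest mean, and the adjusted p (limma, Benjamini-Hochberg over 18253 genes) ran from 0.152 for Nfkb1 to 0.932 for Relb. Adjusted p was under 0.05 for 7 of all 18253 genes (0.0383%). The largest change among these 9 probes was 1.34-fold, and no member met the pair of thresholds (2-fold, unadjusted p of 0.05 or less) that 3.52% of all genes met. On this scale 6 members were higher and 3 lower in knockout cells, with a median log2 difference of 0.14 against -0.12 over all genes, but with normexp (another background correction) and the 75th percentile 1 was higher and 8 were lower, with medians of -0.14 and -0.096. With quantile normalization 8 were higher and 1 lower, with medians of 0.28 and -0.067, and with normexp and quantile normalization 8 and 1, with medians of 0.25 and -0.046. Among the 9 members, Nfkb1 (higher) and Rela (lower) kept their direction under each of the 5 ways of scaling tried, and the other 7 turned under at least 1 of them. The Nfkb1 difference ran from 0.17 with normexp and the 75th percentile (adjusted p = 0.465) to 0.56 with quantile normalization (adjusted p = 0.122).

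**Figure D1:**
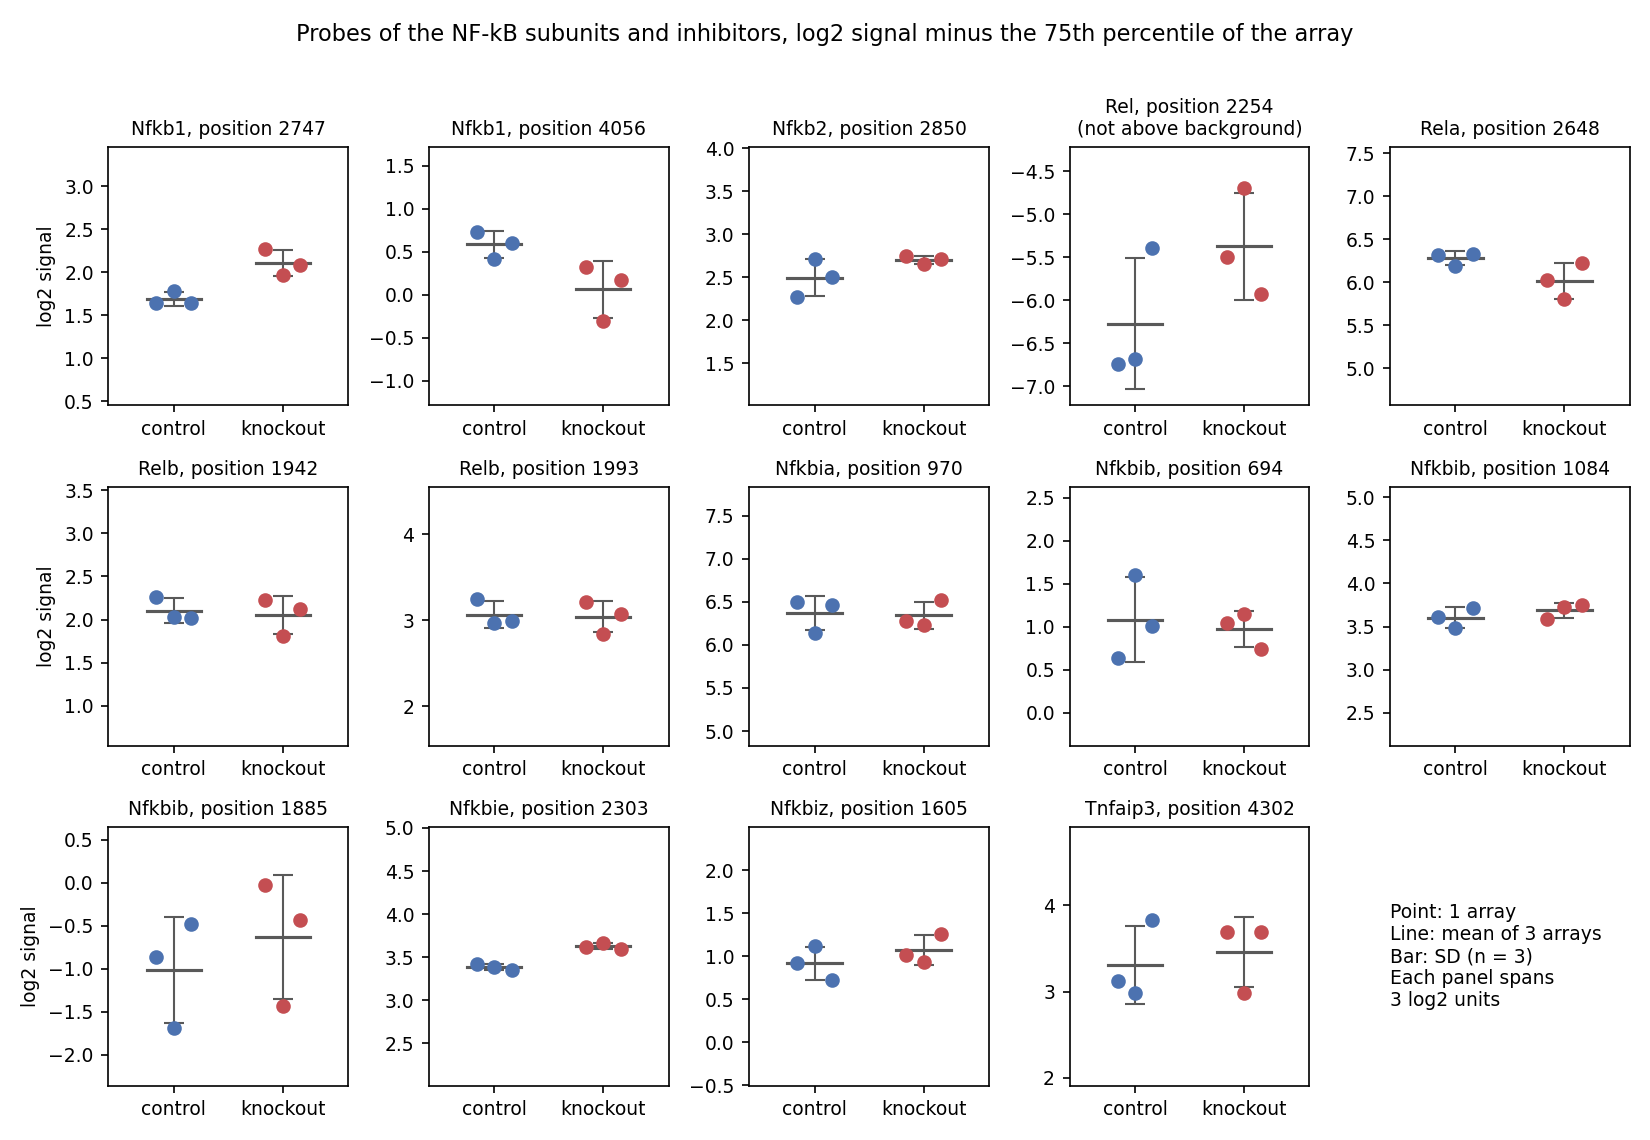
Log2 signal minus the 75th percentile of the array (y axis) on each of the 3 control (blue) and 3 knockout (red) arrays, for all 14 probes, with the mean (line) and SD (bar) of each genotype; each panel spans the same number of log2 units. The genotypes do not overlap for both Nfkb1 probes and for Nfkbie, and the Rel probe was well above background on no array.

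Nfkb1, the p105 and p50 gene, is represented by 2 probes of 1 transcript, and their differences have opposite signs. The first lies at transcript position 2747, counted in bases from the 5′ end as the array file gives it (chr3:135254550-135254609, mm9, minus strand), and the second at position 4056, nearer the 3′ end (chr3:135247621-135247680). Their first 30 bases are shown because all that follows for Nfkb1 turns on which of them is read.
Nfkb1 probe at position 2747: tctatgacctggacgactcttgggagaagg
Nfkb1 probe at position 4056: aaatgctatttacttttttattttactttt

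The probe at position 2747 read 1.64, 1.78 and 1.64 in control and 2.27, 1.97 and 2.09 in knockout cells. Every knockout array lay above every control array. The difference was 0.42 (SE 0.14, 95% interval 0.082 to 0.76, 1.34-fold), with an unadjusted p of 0.0217 and an adjusted p of 0.152 in the limma fit, so it did not pass. Such separation is common here: all 3 knockout arrays were above all 3 control arrays for 14.7% of all genes and below them for 21.6%, against 2 and 0 of the 9 members. An unadjusted p of at most 0.05 was reached with a higher value in knockout cells by 11.6% of all genes and with a lower one by 13.6%, and among the members by Nfkb1 alone.

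The probe at position 4056 read 0.73, 0.42 and 0.60 in control and 0.32, -0.31 and 0.17 in knockout cells. Here every knockout array lay below every control array. The difference was -0.52 (SE 0.20, 95% interval -0.999 to -0.048), with an adjusted p of 0.179 (limma, over 24754 probes). When both probes were averaged, the difference of Nfkb1 was -0.051 with an adjusted p of 0.851, so the direction reported for Nfkb1 depends on the probe.

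The contrast between the probes can be read within each array, where the percentile subtracted from the array cancels. The probe at position 2747 exceeded the probe at position 4056 by 0.90, 1.36 and 1.04 log2 units in control and by 1.95, 2.28 and 1.91 in knockout cells. The genotypes did not overlap, and the gap was wider in knockout cells by 0.94 (SE 0.17, 95% interval 0.53 to 1.36, 1.92-fold). This comparison was chosen after the values of both probes were seen. Fitted with limma over 2957 pairs of probes of 1 transcript it had an adjusted p of 0.0425, and the exact permutation test, two-sided, gave 0.1, the smallest value that 3 against 3 arrays allow. Under the 15 alternatives the difference ran from 0.62 to 1.07 and the adjusted p from 0.00655, with array weights, to 0.141. The adjusted p was above 0.05 in 10 of the 15, among them each of those without 1 of the 6 arrays. Of all pairs, 4.4% had an adjusted p under 0.05 and 33% did not overlap between genotypes.

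**Figure D2:**
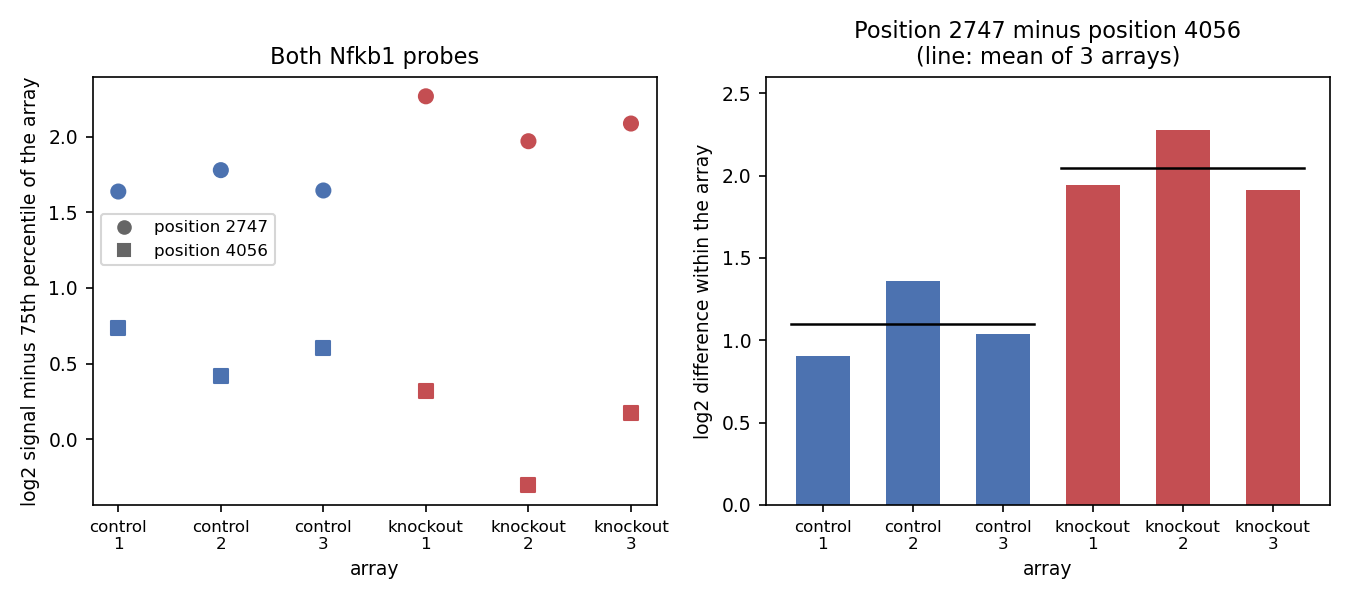
Left, log2 signal minus the 75th percentile of the array for the Nfkb1 probes at positions 2747 (circles) and 4056 (squares) on each control (blue) and knockout (red) array; right, the difference between them within each array, with the mean of 3 arrays as a line. The gap averages 1.101 on the control arrays and 2.05 on the knockout arrays.

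A relation between the position of a probe and its difference between genotypes ran through the whole array. Across all 2957 pairs, the probe farther from the 3′ end read relatively higher in knockout cells in 65.8%, with a median of 0.12. The median was 0.035 for the 1145 pairs up to 500 bases apart and 0.42 for the 636 pairs over 2000 bases apart. The Nfkb1 probes are 1309 bases apart and the farther one is the brighter. For the 239 pairs of that kind, 1001 to 2000 bases apart, the median was 0.082 and 6.69% were as large as Nfkb1 or larger, and for the 407 pairs of that distance with a dimmer farther probe it was 0.30 and 6.88%. The part of this relation, and of the lower signal of the knockout arrays, in the Nfkb1 result was not tested.

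**Figure D3:**
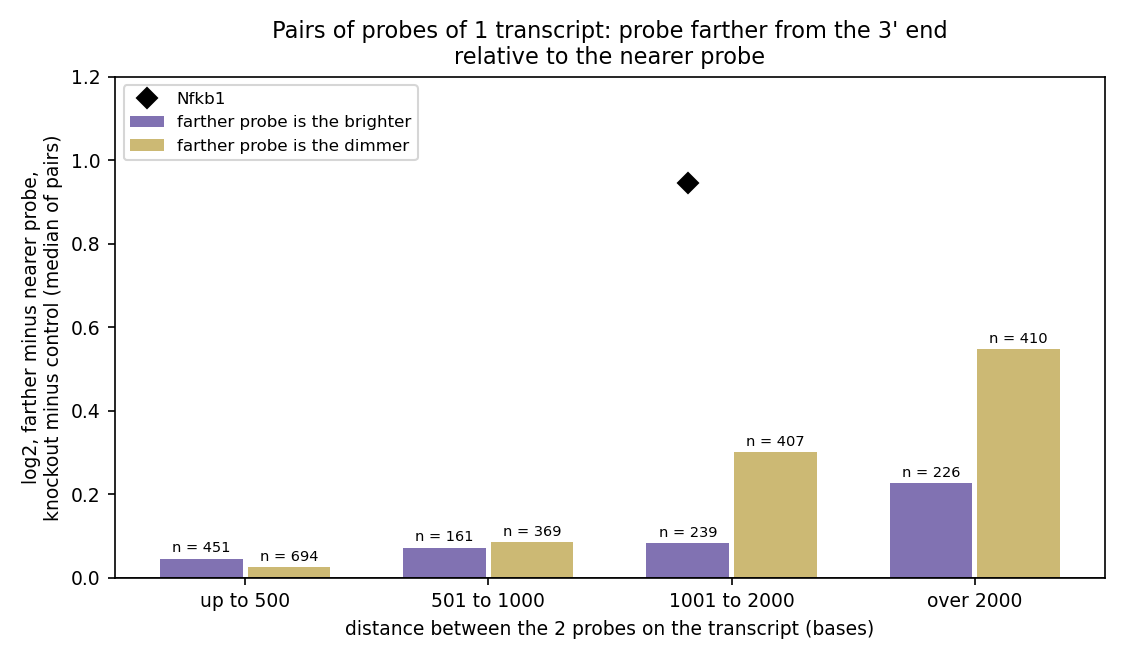
Median over pairs of probes of 1 transcript of the log2 difference farther minus nearer probe from the 3′ end, knockout minus control (y axis), by the distance between the probes in bases (x axis) and by whether the farther probe is the brighter; n is the number of pairs and the diamond is Nfkb1. The medians run from 0.046 and 0.025 up to 500 bases to 0.23 and 0.55 over 2000 bases, and Nfkb1 stands at 0.94.

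The other subunits showed smaller differences. Nfkb2, whose p100 precursor is processed to p52 in the noncanonical branch, read 2.28, 2.71 and 2.50 in control and 2.75, 2.65 and 2.71 in knockout cells (position 2850, chr19:46386146-46386285, mm9, an interval of 140 bases for a probe of 60). The knockout arrays lay close together at the upper end of the control range, replicate 1 just above it, and the difference was 0.21 (95% interval -0.16 to 0.58, adjusted p = 0.401). Rela, the p65 subunit of the canonical dimer, read 6.32, 6.19 and 6.33 in control and 6.03, 5.81 and 6.22 in knockout cells (position 2648, chr19:5648070-5648129). Knockout replicate 3 lay within the control range and the other 2 knockout arrays below it.

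The Rela difference was -0.26 (SE 0.16, 95% interval -0.63 to 0.11, adjusted p = 0.304), which lies 0.15 below the median of all genes. With normexp and the 75th percentile it was -0.58 with an adjusted p of 0.0370, a setting in which 6445 of all genes were called. Relb, the subunit that pairs with p52 and p100, has 2 overlapping probes at positions 1942 and 1993. The brighter one (chr7:20191722-20191781) read 3.24, 2.97 and 2.99 in control and 3.21, 2.85 and 3.07 in knockout cells. The ranges of the genotypes overlapped, the difference was -0.023 (95% interval -0.40 to 0.36, adjusted p = 0.932), and the other probe gave -0.052. One more probe is described as Relb in the file but named by a transcript identifier, so the rule did not take it; it read a mean of -2.23 on the control and -1.89 on the knockout arrays (adjusted p = 0.291).

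Rel, the c-Rel gene, could not be measured. Its 1 probe was well above background on none of the 6 arrays, with values of -6.75, -6.68 and -5.40 in control and -5.49, -4.70 and -5.93 in knockout cells, and it was not tested. These values lie below the lowest signal called well above background on each array, and they give no fold. The file places the probe at position 2254 with an interval of only 15 bases (chr11:23641729-23641743) for its 60 bases. That the probe gave no signal says nothing of whether c-Rel was transcribed.

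Nfkbia, the IκBα gene and a fast target of NF-κB itself, read 6.50, 6.14 and 6.46 in control and 6.28, 6.23 and 6.52 in knockout cells (position 970, chr12:56590945-56591440). The genotypes overlapped over nearly their whole range, and the difference was -0.025 (95% interval -0.41 to 0.36, adjusted p = 0.929). Its sign turned in 8 of 20 alternatives, with values between -0.37 and 0.070. The interval covers 0.751 to 1.29 times the control level, so equal expression is not shown.

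Nfkbib, the IκBβ gene, has 3 probes, all well above background. The brightest (position 1084, chr7:29544160-29544219) read 3.61, 3.48 and 3.72 in control and 3.58, 3.73 and 3.75 in knockout cells. The difference was 0.083 (95% interval -0.25 to 0.41, adjusted p = 0.706), and knockout replicate 1 lay within the control range and the other 2 just above it. The probes at positions 694 and 1885 gave -0.11 (95% interval -0.72 to 0.51) and 0.38 (95% interval -0.62 to 1.38), with genotypes that overlapped on both. The difference between genotypes in the gap between its 2 brightest probes, 390 bases apart, was -0.19 (adjusted p = 0.756), and that between the Relb probes, 51 bases apart, was -0.029 (adjusted p = 0.878).

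Nfkbie, the IκBε gene, was the inhibitor with the tightest replicates. It read 3.42, 3.38 and 3.35 in control and 3.62, 3.67 and 3.60 in knockout cells (position 2303, chr17:45700000-45700059). Every knockout array lay above every control array, with an SD of 0.039 in control and 0.036 in knockout cells. The difference was 0.24 (SE 0.13, 95% interval -0.054 to 0.54, 1.18-fold), with an unadjusted p of 0.0939 and an adjusted p of 0.256. The limma fit moderates each variance towards that of other genes, so its standard error exceeds the spread of these 6 values. With normexp and the 75th percentile the difference was -0.068, and under the other 3 scalings it stayed above 0.

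Nfkbiz encodes IκBζ, a nuclear IκB protein that acts with p50 on a subset of NF-κB targets. It read 0.92, 1.11 and 0.73 in control and 1.01, 0.93 and 1.26 in knockout cells (position 1605, chr16:55817859-55817918), and the difference was 0.15 (95% interval -0.24 to 0.54, adjusted p = 0.563). Tnfaip3 encodes A20, a ubiquitin-editing enzyme that switches off the signal upstream of the IκB kinases. It read 3.12, 2.99 and 3.83 in control and 3.69, 2.98 and 3.70 in knockout cells (position 4302, chr10:18720776-18720835). Tnfaip3 had the widest spread of the 9 probes, since 1 control array lay as high as 2 knockout arrays and 1 knockout array as low as 2 control arrays. The difference was 0.14 (95% interval -0.54 to 0.83, adjusted p = 0.754), and without control replicate 2 it was -0.018.

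**Figure D4:**
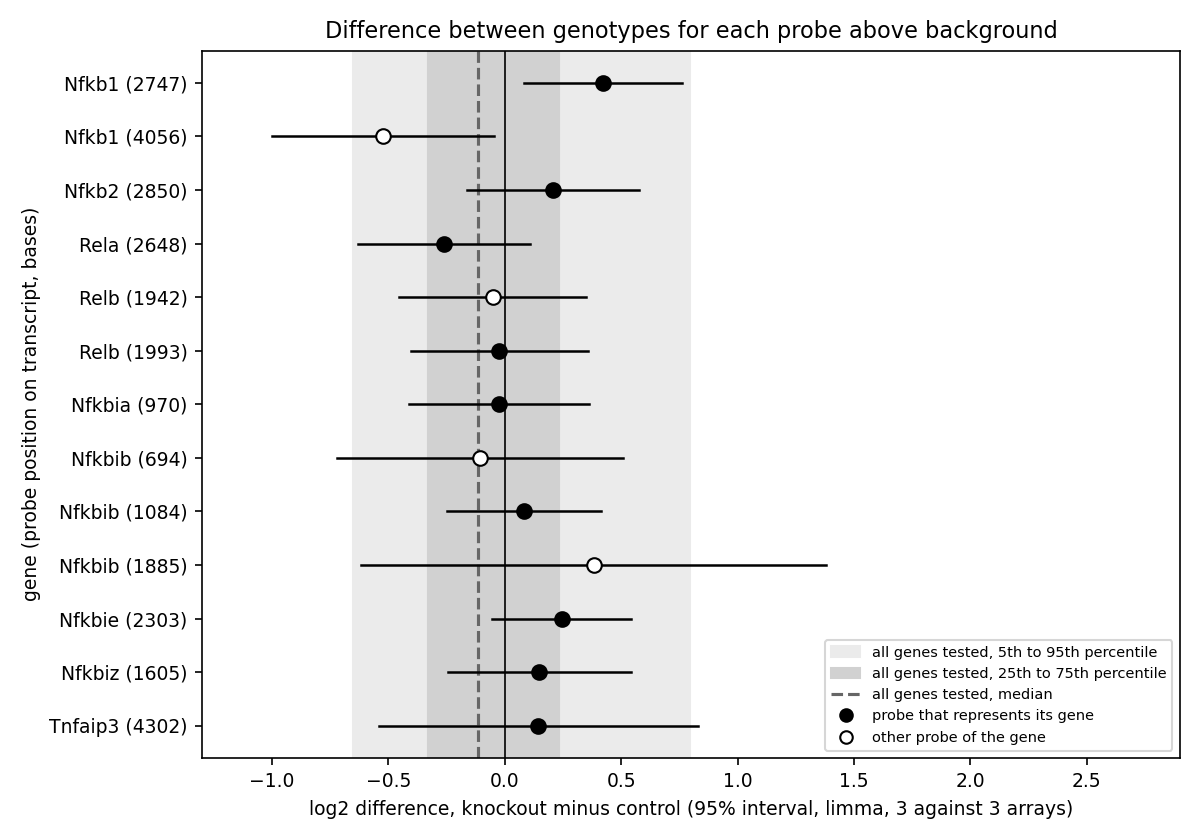
Log2 difference, knockout minus control (x axis), with its 95% limma interval for each of the 13 probes above background (y axis, with the position on the transcript); filled points represent their gene, open points are its other probes, and the bands and dashed line show the percentiles and the median (-0.12) of all genes tested. The intervals of the Nfkb1 probes lie on opposite sides of 0, and those of the other 11 probes include 0.

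The promoters of the members were searched for the letters of the kappaB consensus. The 250 bases before each RefSeq start (GRCm38.p6) were read on both strands for this 10-base motif, with overlapping matches kept. A gene with several starts has several windows. Of 32851 windows of all genes, 7.25% held a match, and of 27025 genes 8.23% held one in at least 1 window. Of the 10 members, 7 were in the table by symbol (Nfkb2, Rel, Rela, Nfkbia, Nfkbib, Nfkbie and Tnfaip3), and 5 of them held a match in at least 1 window (7 of 10 windows), Rela and Nfkbib being the exceptions. The windows of 3 genes are shown, matches in capitals, because they include the inhibitor whose arrays separated (Nfkbie), the inhibitor that sits at the centre of the classical feedback loop (Nfkbia) and the window with the most matches (Nfkb2).
Nfkbia, chr12:55492648-55492897, minus strand: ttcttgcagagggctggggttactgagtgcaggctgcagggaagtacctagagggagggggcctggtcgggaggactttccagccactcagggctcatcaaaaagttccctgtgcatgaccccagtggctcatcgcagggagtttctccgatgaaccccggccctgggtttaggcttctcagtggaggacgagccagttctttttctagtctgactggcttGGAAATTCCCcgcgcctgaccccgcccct
Nfkbie, chr17:45555450-45555699, plus strand: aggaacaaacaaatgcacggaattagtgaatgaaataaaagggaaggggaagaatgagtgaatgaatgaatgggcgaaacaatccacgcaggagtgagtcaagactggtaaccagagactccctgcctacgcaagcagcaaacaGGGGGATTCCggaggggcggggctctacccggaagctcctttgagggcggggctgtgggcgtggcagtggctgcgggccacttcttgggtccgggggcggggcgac
Nfkb2, chr19:46304487-46304736, plus strand: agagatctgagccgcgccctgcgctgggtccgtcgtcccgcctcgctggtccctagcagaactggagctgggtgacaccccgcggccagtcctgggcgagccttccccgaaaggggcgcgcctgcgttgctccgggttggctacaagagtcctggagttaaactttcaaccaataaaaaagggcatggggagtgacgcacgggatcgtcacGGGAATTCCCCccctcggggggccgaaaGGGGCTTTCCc

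The match begins 29 bases before the start in Nfkbia and 106 in Nfkbie, and Nfkb2 has matches that begin 39, 38 and 11 bases before it, the first 2 of which overlap. The 5 genes with a match are Nfkb2, Rel, Nfkbia, Nfkbie and Tnfaip3, and the 4 of them that were tested had log2 differences of 0.21, -0.025, 0.24 and 0.14, in the order Nfkb2, Nfkbia, Nfkbie, Tnfaip3. Those without one, Rela and Nfkbib, had -0.26 and 0.083. A match is a description of letters in the window and not a measured site.

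The genes around the members in the pathway were read from 5 lists, and none of them passed the adjusted p in the fit reported. With normexp and the 75th percentile, where 6445 of all genes were called, 2 receptors, 14 adaptors, 2 genes of the kinase complex, 8 other inhibitors and 16 targets passed. With normexp and quantile normalization, where 13 genes were called, 1 of the other inhibitors passed. The counts of higher and lower genes in the lists stand against 39.8% of all genes that were higher on the scale reported, and those with an unadjusted p of at most 0.05 against 11.6% of all genes higher and 13.6% lower. Among receptors that signal to NF-κB, 17 of 19 on the array were tested and 5 were higher and 12 lower in knockout cells, with a median of -0.052 against -0.12 for all genes. With the median of detected probes 9 were higher and 8 lower, with a median of 0.043 against -0.021, and with normexp and the 75th percentile 7 and 10. Ltbr and Il1rap, both among the lower, were tested only because all control arrays detected them, and without them 5 were higher and 10 lower. An unadjusted p of at most 0.05 was reached by 2 with a higher and 2 with a lower value, near the share of all genes in each direction. Tlr9, the receptor for CpG DNA, read 2.03, 2.10 and 2.01 in control and 2.65, 3.19 and 2.23 in knockout cells, a difference of 0.64 (SE 0.24, adjusted p = 0.171). It was the 1 receptor that met the size and separation asked for naming.

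Of 26 adaptors and ubiquitin ligases tested, 6 were higher and 20 lower, with a median of -0.22, and 2 and 8 of them had an unadjusted p of at most 0.05. Prkcq, among the lower, was tested through the control arrays alone. With quantile normalization 9 were higher and 17 lower with a median of -0.056, next to -0.067 for all genes, and with normexp and quantile normalization 10 and 16 with -0.062, next to -0.046. The 3 knockout values lay under the 3 control values in 12 adaptor genes and over them in 2, on the scale where 21.6% and 14.7% of all genes did so. Bcl10 and Malt1, signalling partners between the B cell receptor and the IκB kinases, were both among the genes whose knockout arrays all lay lower. Bcl10 read 3.62, 3.66 and 3.55 in control and 2.88, 2.72 and 3.12 in knockout cells, a difference of -0.70 (SE 0.15, adjusted p = 0.105). Malt1 read 5.01, 5.01 and 5.10 in control and 4.36, 4.17 and 4.70 in knockout cells, a difference of -0.63 (SE 0.17, adjusted p = 0.122). Irak4, the kinase next to MyD88 in Toll-like receptor signalling, went the other way, with -0.52, -0.54 and -0.33 in control and 0.17, 0.19 and 0.22 in knockout cells, a difference of 0.66 (SE 0.13, adjusted p = 0.0976).

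All 14 genes of the IκB kinase complex and its partners were tested, and 2 were higher and 12 lower, with a median of -0.17. With quantile normalization the split was 7 and 7 and the median 0.00034. Tank, a scaffold of the kinases TBK1 and IKKε, read 0.82, 0.62 and 0.82 in control and 1.54, 1.49 and 1.39 in knockout cells, a difference of 0.72 (SE 0.14, adjusted p = 0.0933). Erc1, which binds the IκB kinase complex, read -2.37, -2.43 and -2.39 in control and -1.84, -0.997 and -2.07 in knockout cells, a difference of 0.76 (SE 0.27, adjusted p = 0.159). These 2 of 14 are the genes of that list with an unadjusted p of at most 0.05, near the 11.6% of all genes that were higher at that p.

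Among other inhibitors of the pathway, 6 of 20 were higher and 14 lower, with a median of -0.27, and 3 in each direction had an unadjusted p of at most 0.05, near the 11.6% and 13.6% of all genes. With quantile normalization and with normexp and quantile normalization 8 were higher and 12 lower, with medians of -0.079 and -0.075, next to -0.067 and -0.046 for all genes. Nlrc5, best known as the activator of MHC class I genes and also described as a brake on IκB kinases, read 3.11, 2.52 and 2.82 in control and 4.08, 3.87 and 3.99 in knockout cells. Its difference of 1.16 (SE 0.18, 2.24-fold, adjusted p = 0.0771) was larger than that of any member. N4bp1, an RNA-binding protein that limits NF-κB activity, read -2.18, -1.95 and -1.67 in control and -1.28, -1.43 and -1.28 in knockout cells, a difference of 0.61 (SE 0.17, adjusted p = 0.124).

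Of 42 NF-κB target genes tested, 22 were higher and 20 lower, with a median of 0.061, and with normexp and the 75th percentile 18 and 24. Without Ier3, tested through the control arrays alone, the split was 21 and 20. The lists overlap, since the targets Birc2, Birc3, Traf1, Cd40, Bcl3, Nfkbid and Tnip1 are also counted among the receptors, adaptors or other inhibitors. An unadjusted p of at most 0.05 was reached by 9 with a higher and 5 with a lower value, the latter near the 13.6% of all genes and the former beside 11.6%. Ccl5, a chemokine made by T cells and NK cells above all, read -0.43, -2.34 and -1.63 in control and 1.27, 2.71 and 4.22 in knockout cells, a difference of 4.20 (SE 0.77, adjusted p = 0.0917). Ccl17, a chemokine that draws T cells through CCR4, read -0.72, -0.27 and -0.45 in control and 0.83, 1.79 and 1.68 in knockout cells, a difference of 1.91 (SE 0.28, adjusted p = 0.0771). Ccr7, the receptor that guides B cells to lymph nodes, and the cytokine gene Lta were higher as well, by 0.65 (SE 0.19, adjusted p = 0.130) and 1.02 (SE 0.32, adjusted p = 0.136), both without overlap.

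Targets that were lower without overlap included the costimulatory ligand gene Cd80, which read 3.35, 3.46 and 3.34 in control and 2.51, 2.66 and 2.72 in knockout cells, a difference of -0.75 (SE 0.14, adjusted p = 0.0917). Gadd45b, a stress response gene, had a difference of -0.59 (SE 0.19, adjusted p = 0.141). All 14 genes named from these lists kept their direction under the 5 ways of scaling. The size of 7 of them moved by more than 1.5 times from that in the fit reported. N4bp1 ran from 0.16 to 0.70, Erc1 from 0.27 to 0.86, Tlr9 from 0.32 to 0.82, Ccr7 from 0.34 to 0.83, Tank from 0.44 to 0.81, Lta from 0.66 to 1.12 and Bcl10 from -0.92 to -0.45. Of the other 7, Malt1 ran from -0.93 to -0.44, Cd80 from -0.99 to -0.52, Gadd45b from -0.75 to -0.43 and Nlrc5 from 0.81 to 1.37. Irak4 ran from 0.49 to 0.75, Ccl17 from 1.44 to 2.01 and Ccl5 from 3.23 to 4.29. On none of these scales did more than 25 of the 42 targets share a direction.

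**Figure D5:**
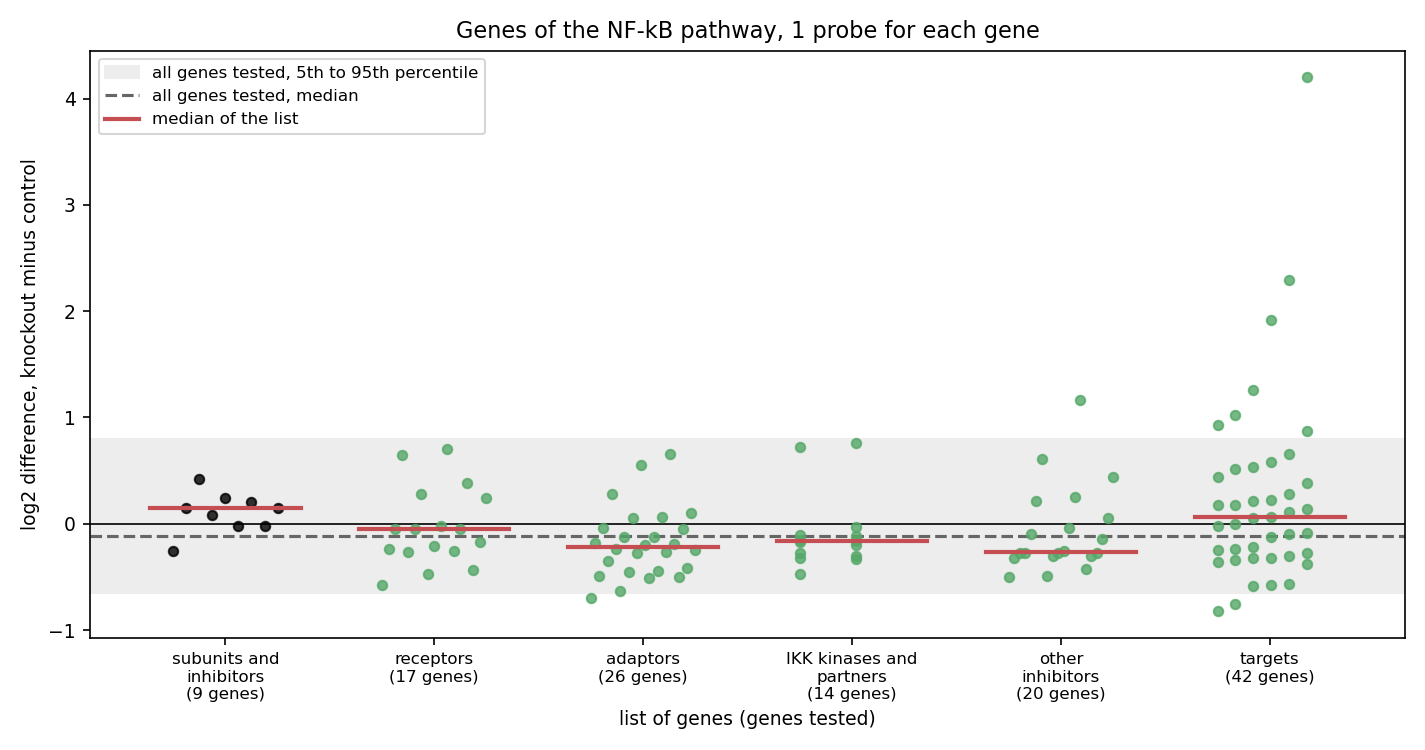
Log2 difference, knockout minus control (y axis), of each gene tested in 6 lists of the NF-κB pathway (x axis, 1 point for each gene, the red line is the median of the list), with the median (dashed) and the 5th to 95th percentile (band) of all genes tested. The 9 subunits and inhibitors lie between -0.26 and 0.42, inside the band, and the targets spread from -0.82 to 4.20.

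Markers of other cells differed in level between the arrays too, none with an adjusted p under 0.05 in the fit reported. With normexp and the 75th percentile 3 T cell, 5 macrophage, 3 plasma cell markers and 1 NK cell marker passed. A marker detected on all arrays of 1 genotype alone could be tested only through that genotype, which favours 1 direction. These were Lat and Gzma through the knockout arrays and Fcgr1, Cpa3, Mcpt4 and Sdc1 through the control arrays. Each summed signal below is over the markers tested, these included, and its brightest probes weigh most. Of 11 B1a and B cell markers, all were well above background on all arrays of both genotypes, with a summed linear signal, relative to the 75th percentile, of 1339 to 1399 on the control and 1409 to 1591 on the knockout arrays. Gene by gene, 6 of the 11 were higher and 5 lower, with a median of 0.12. With normexp and the 75th percentile the split was 4 and 7, with a median of -0.19. Of 9 T cell markers, 6 were well above background on all control arrays and 7 on all knockout arrays, and none was absent from all arrays. The 7 tested had a summed signal of 9.004 to 15.2 on the control and 13.5 to 16.9 on the knockout arrays. Of the 7 T cell markers tested 6 were higher (5 of 6 without Lat), Thy1 with a difference of 2.13 (adjusted p = 0.135, 0.90 to 2.22 over the 5 scalings) and Cd3e with 0.60 (adjusted p = 0.127, 0.38 to 0.69 over the 5 scalings). Of 14 macrophage markers, 12 and 11 were well above background on all control and all knockout arrays. The 12 tested had summed signals of 39.8 to 91.7 on the control and 33.8 to 74.9 on the knockout arrays. Of the 12 tested 11 were lower (10 of 11 without Fcgr1), Mrc1 with a difference of -1.08 (adjusted p = 0.110), though 3 or 4 of the 12 were higher under 3 of the other scalings. All 5 plasma cell markers tested were lower (4 of 4 without Sdc1, and 4 of 5 with normexp and the 75th percentile), Igj with a difference of -1.92 (adjusted p = 0.135, -1.92 to -1.51 over the 5 scalings). Their summed signals were 68.6 to 75.6 and 46.6 to 59.5 on control and knockout arrays, and Tnfrsf17 was absent from all 6 arrays. Of 7 NK cell markers, Ncr1, Klrk1, Klrb1c and Klra8 were well above background on no array, and Gzma and Prf1 were tested (summed signal 0.521 to 0.635 in control and 0.621 to 0.878 in knockout cells). Of 8 granulocyte and mast cell markers, 3 were tested, of which the 1 detected on all arrays was higher and Cpa3 and Mcpt4 were lower, with summed signals of 0.852 to 3.17 and 0.806 to 1.498. NF-κB genes are expressed in all these cells, and the part of such differences in the values of the members was not tested.

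Finally, the genes whose profile over the 6 arrays was most like that of the Nfkb1 probe at position 2747 were Trim7, Serinc4, Ccdc127, Arid3b and Xaf1, among 9646 genes that were well above background on all arrays and carry a gene symbol (an initial capital, then lower-case letters, digits or hyphens, with clone names and predicted genes left out). Their root mean square distance from it, after each gene was centred on its own mean, was 0.049, 0.064, 0.064, 0.066 and 0.072 log2 units over 6 arrays. Their differences between genotypes ran from 0.34 for Ccdc127 to 0.43 for Trim7. The points share the arrays and their scaling, and no test was made.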

How the data were processed

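Total RNA of sorted PC B1a cells was labelled with Cy3 and hybridized to Agilent mouse arrays. The authors deposited spot intensities from Feature Extraction 10.7.1.1, per the file headers background-subtracted and detrended on each array but not scaled between arrays, with mean and local background intensities. Other deposited columns are quality marks of 0 or 1. The authors also deposited log2 values whose sorted values are the same on all 6 arrays; the methods name Genespring and no scaling. These were used as an alternative.

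Here, log2 of the processed signal minus the 75th percentile of each array was taken, outlier spots (163 to 251 for each array) were dropped, and replicate spots were averaged. Tested were 24754 probes of 18253 genes that all 3 arrays of 1 genotype or both put well above background; each gene is represented by its brightest tested probe. Genotypes were compared with limma 3.58.1 (R 4.3.3) and the Benjamini-Hochberg method. Coordinates are those of the files (mm9). Exon and UTR annotation of that build was not used here. Only the limma fit was tested on simulated data, with independent normal noise on the scaled values of the genes tested. The scaling, the filter and the pairs of probes were not tested in this way. No 2 arrays were identical (correlation 0.968 to 0.992). All lay on 1 slide in 1 scan. Nothing says that replicates are separate experiments beyond the pools of mice, so p-values measure the spread between these samples.

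The members and lists were chosen with earlier results of these data known. All members were named; a pathway gene was named where its unadjusted p was at most 0.05, its change at least 1.5-fold and its genotypes did not overlap, at most 6 for each list. Ccl22, Il1b, Ptgs2, Card9 and Il1r1 of the lists were well above background on no array. Alternatives were other scalings, normexp background correction (offset 50), the deposited values, other filters on dim probes, outlier spots kept, the mean of probes or each probe alone, the methods' t-test, array weights, a replicate block, eBayes with trend and robust estimation, and each array dropped in turn.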

Additional observations from a re-analysis of the deposited data

How the results depend on the processing

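The number of genes with an adjusted p under 0.05, 7 in the fit reported, was 23 with quantile normalization, 13 with normexp and quantile normalization, 22 with the deposited log2 values, 6445 with normexp and the 75th percentile, 2 with no filter on dim probes, 27 with probes well above background on all 6 arrays, 11 when probes of a gene were averaged, 20 with each probe on its own, 2 with the methods' t-test after Benjamini-Hochberg adjustment, 754 with trend and robust estimation, 4185 with array weights, whose estimate stopped before it converged, and 2 to 112 with 1 array left out (112 without knockout replicate 3). With the replicate block it was 4. Same-numbered arrays deviated together with correlations of 0.19, 0.056 and 0.094, so the numbers were not taken to pair the samples. The median of the members, 0.14, was -0.14 with normexp and the 75th percentile and 0.022 to 0.22 with 1 array left out. The median of all genes, -0.12, was 0.40 with no filter. Directions turned for Nfkb1 (-0.051) with the mean of its probes and for Nfkb2 (-0.057), Nfkbie (-0.068), Nfkbiz (-0.012), Nfkbib (-0.23) and Tnfaip3 (-0.14) with normexp and the 75th percentile. Nfkbib was -0.036 and Relb 0.13 with array weights, which put Nfkb1 at 0.54 with an adjusted p of 0.0216. Nfkbia was 0.022 with quantile normalization, 0.070 with the median of detected probes, 0.0047 with normexp and quantile normalization and 0.0059 with the deposited values. Relb was 0.18, 0.071, 0.17 and 0.16 in the same order. With 1 array left out, Nfkbia ran from -0.14 to 0.040, Relb from -0.11 to 0.075 and Tnfaip3 from -0.018 to 0.40, while these kept their direction: Nfkb2 from 0.096 (without control replicate 1) to 0.31, Nfkbiz from 0.051 (without knockout replicate 3; 0.053 without control replicate 3) to 0.25 (without control replicate 2), Nfkbib from 0.022 (without control replicate 2; 0.050 without knockout replicate 3) to 0.14 (without control replicate 3 or knockout replicate 1), Rela from -0.36 to -0.16 (without knockout replicate 2) and the Nfkb1 probe at position 4056 from -0.65 to -0.34 (without knockout replicate 2). The difference between the Nfkb1 probes, examined under alternatives chosen after seeing the data, was 1.07 with quantile normalization (adjusted p = 0.0763), 1.07 with the deposited values (0.0783), 0.94 with the methods' t-test (0.112), 0.94 with the replicate block (0.113) and 0.83 to 1.07 with 1 array left out (0.0659 to 0.141). The cause of these shifts was not tested. Signal over background limits Rel, which no alternative but the absence of a filter would test.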
